A study of Mus musculus with 9 samples.

Results

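Interferon-stimulated genes are the genes that cells switch on when interferons, or the nucleic acids of viruses, are sensed. The set examined here held 36 genes, chosen by symbol from 54838 genes in the expression table, and all 36 were found. Of these, 33 passed the filter on low values and were tested among 18889 genes, while Mx1, Oas3 and Oasl1 were too weakly expressed. The ovaries came from adult mice, 40 h after pregnant mare serum gonadotropin, a hormone preparation that drives follicles to grow. The 3 genotypes had 3 libraries each. DKO_TG lacked both liver X receptors, LXRa and LXRb, and carried a transgene that the labels name TG-AMH-LXRb. DKO was this double knockout without a transgene, and WT was wild type. Liver X receptors are oxysterol-activated nuclear receptors known for lipid control and for restraint of inflammatory genes in macrophages. The sources used here give neither the promoter and sequence of the transgene nor the mouse strain. They also do not say that each library came from its own animal, so a p-value measures the spread between libraries, which may be technical.

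Type I interferons bind the receptor chains Ifnar1 and Ifnar2, and the kinases Jak1 and Tyk2 then activate STAT proteins, Stat2 among them. Stat2 and Irf9 are parts of the complex ISGF3, which binds interferon-stimulated response elements in the promoters of many interferon-stimulated genes. Interferon gamma uses its own receptor with Jak1 and Jak2. The products bind, cut, tag or sense foreign RNA, and many cells keep a low tonic level of them without infection.

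Both receptor genes were checked first. Nr1h3, which encodes LXRa, lay at 0.538, 0.824 and 0.647 RPKM in DKO_TG and at 0.590, 1.11 and 0.717 RPKM in DKO, against 5.47, 4.12 and 4.45 RPKM in WT (replicates 1, 2 and 3, in this order throughout). Nr1h2, which encodes LXRb, lay at 5.14, 5.96 and 5.90 RPKM in DKO_TG and at 7.79, 6.02 and 5.79 RPKM in DKO, against 22.5, 18.7 and 15.2 RPKM in WT. These levels do not check the transgene, whose reads need not be counted under Nr1h2. RPKM is reads per kilobase of exon, scaled to a library size, so levels compare between genes of a library. The size behind the deposited values was 0.793 to 0.920 of the total reads in WT and 1.03 to 1.11 in the rest. Comparisons with WT therefore depend on this scaling. Recovered depth was 40.1 to 47.6 M reads in DKO_TG, 46.1 to 59.4 M in DKO and 48.6 to 57.7 M in WT. WT libraries stood apart from both knockout genotypes. The nuclear-retained RNAs Malat1, Neat1, Meg3 and Miat summed to 305 to 347 RPKM in DKO_TG and 226 to 285 in DKO, against 1.92 to 11.95 in WT. This gap moves with every difference from WT given below, and its part in them was not tested.

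The members differed widely in level. Bst2, which encodes the membrane protein tetherin, had the highest mean over the 9 libraries (212 RPKM), followed by Ifi27 (95.8 RPKM), a small membrane protein. Gbp2 averaged 15.1 RPKM, Ifi35 11.7 RPKM and Stat2 8.09 RPKM, and the remaining 31 members lay below these. The weakest were Oas3 (0.0483 RPKM), Mx1 (0.210 RPKM) and Oasl1 (0.384 RPKM). Ovarian markers were present: the granulosa cell genes Fshr, Cyp19a1, Foxl2, Inha, Inhba, Amh and Nr5a2 summed to 1539 to 1868 RPKM in DKO_TG, 1039 to 2059 in DKO and 1676 to 2302 in WT.

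**Figure D1:**
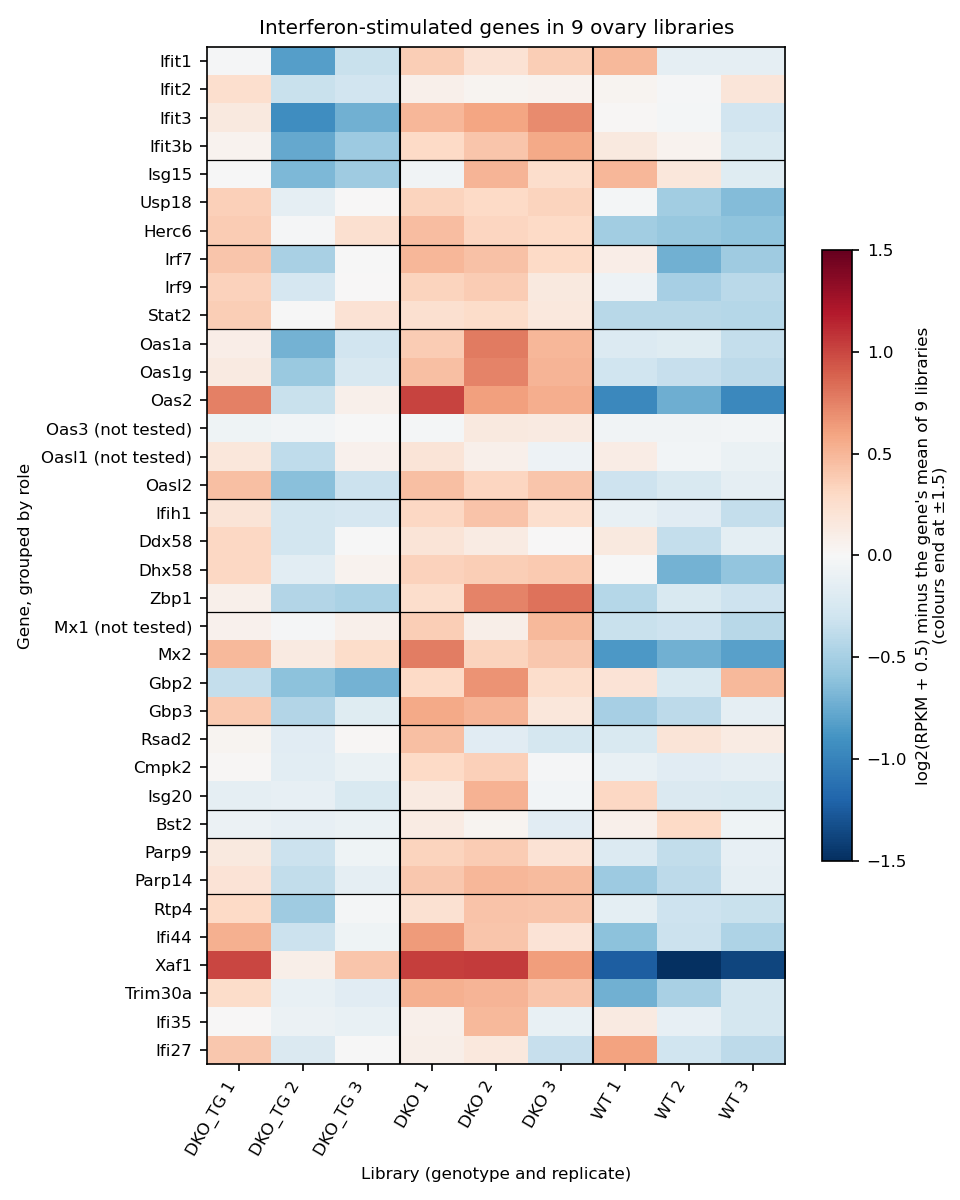
Heat map of the 36 members (rows, grouped by role) in the 9 libraries (columns). Colour is log2(RPKM + 0.5) minus the mean of the gene over 9 libraries, red above and blue below, and colours end at ±1.5. Most rows are redder in the DKO libraries than in WT, and DKO_TG replicate 1 is redder than DKO_TG replicate 2.

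Most of the set stood higher in DKO ovaries than in WT ovaries, across nearly all roles. By limma on log2(RPKM + 0.5), 22 of 33 tested members rose in DKO against WT, beside 30.8% of all tested genes. None fell, beside 25.9% of all genes; none was lower at an unadjusted p below 0.05 or with voom on the recovered reads. The median log2 change of the members was 0.62, against 0.02 for all tested genes. All DKO libraries lay above all WT libraries for 23 of 33 members, beside 32.6% of all genes. Oas2, Zbp1, Mx2 and Ifi44 were below 0.5 RPKM in every WT library and passed the filter, 0.5 RPKM in at least 3 libraries, only through the knockout groups, so that these 4 of the 22 calls had to differ in level. Called members included all 4 tested genes of the OAS family, all 3 transcription factors and both ADP-ribosyltransferases. Only 1 of 4 Ifit genes and 1 of 3 genes of nucleotide enzymes and exonuclease were called, and the membrane tether gene Bst2 was not. Leukocyte markers moved with this difference: 9 of 13 tested macrophage markers and 2 of 3 pan-leukocyte genes rose, and the 14 listed macrophage genes, none of them at 0, summed to 273, 506 and 361 RPKM in DKO, against 196, 196 and 246 RPKM in WT. Their part in the result was not tested, and in whole ovary fewer cells of a type and less RNA per cell cannot be told apart. Other marker lists moved as well: 4 of 6 oocyte markers rose, with sums of 28.4 to 67.3 RPKM in DKO and 13.1 to 30.4 RPKM in WT, and 5 of 6 endothelial markers fell, with sums of 49.5 to 75.3 RPKM in DKO and 88.8 to 96.4 RPKM in WT. Of 3 tested oviduct markers 2 rose and 1 fell, and 2 of 4 tested lymphocyte markers rose. Of the ovarian lists, 1 of 3 theca markers rose and 1 of 7 granulosa markers fell. None of 5 erythrocyte markers was called at either the adjusted or the unadjusted 0.05. Of 4 tested markers of plasmacytoid dendritic cells, Siglech fell (log2 change -0.52, adjusted p = 0.0332 in limma). The median log2 change of these 4 was -0.30, with 3 negative and 1 positive. The part of these markers was not tested either.

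The RNA-binding IFIT proteins, which hold back translation of viral RNA, gave the mixed end of the set. Ifit3 (chromosome 19, 34583531 to 34588731, plus strand, mm10) lay at 3.71, 1.49 and 1.81 RPKM in DKO_TG and at 4.87, 5.22 and 5.69 RPKM in DKO, against 3.33, 3.23 and 2.62 RPKM in WT. The DKO libraries were above all others. Ifit3 rose in DKO against WT (log2 change 0.70 ± 0.24, SE; adjusted p = 0.0367 in limma). Its neighbour Ifit3b had a log2 change of 0.44 (adjusted p = 0.0957), Ifit1 of 0.24 (adjusted p = 0.385) and Ifit2 of -0.01 (adjusted p = 0.954, all in limma). Ifit3 and Ifit3b share much of their sequence: 51.2% of the 50-base words of Ifit3 also occur in Ifit3b, so how reads were split between them is uncertain.

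In the ISG15 system, which couples a ubiquitin-like tag to proteins, the enzymes and the tag did not pass together. Herc6, the mouse ligase of the tag, lay at 2.17, 1.53 and 1.93 RPKM in DKO_TG and at 2.32, 2.07 and 2.02 RPKM in DKO, against 0.930, 0.888 and 0.855 RPKM in WT. Every knockout library was above every WT library, and Herc6 rose in DKO against WT (log2 change 0.92 ± 0.12, SE; adjusted p = 0.000273 in limma). Herc6 shares 1269 exon bases with the transcript Gm45193 on the same strand and is uncertain. Usp18, which removes the tag and dampens the receptor, averaged 1.21 ± 0.308 RPKM in DKO_TG and 1.51 ± 0.0273 RPKM in DKO, against 0.741 ± 0.297 RPKM in WT (SD, n = 3 each). It also rose in DKO against WT (log2 change 0.72; limma adjusted p = 0.00907). Isg15, the tag itself, lay at 6.67, 4.02 and 4.49 RPKM in DKO_TG and at 6.46, 9.73 and 8.15 RPKM in DKO, against 9.70, 7.60 and 5.83 RPKM in WT. Its DKO and WT libraries overlapped (log2 change 0.08, adjusted p = 0.786 in limma).

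All 3 transcription factors of the set rose in DKO against WT. Stat2 (chromosome 10, 128270559 to 128292849, plus strand) lay at 10.3, 7.87 and 9.27 RPKM in DKO_TG and at 9.45, 9.68 and 8.86 RPKM in DKO, against 5.80, 5.82 and 5.74 RPKM in WT. The WT libraries were nearly equal, and every knockout library was above them. The log2 change of Stat2 in DKO against WT was 0.64 ± 0.10 (SE; adjusted p = 0.000859 in limma). Irf9, the DNA-binding part of ISGF3, rose by a log2 change of 0.61 (adjusted p = 0.0121 in limma). Irf7, the factor that amplifies interferon alpha genes, averaged 2.94 ± 1.06 RPKM in DKO_TG and 4.02 ± 0.314 RPKM in DKO, against 2.18 ± 0.838 RPKM in WT (SD, n = 3 each), with a log2 change of 0.80 in DKO against WT (adjusted p = 0.0262 in limma). Irf9 and Irf7 share exon bases with Rnf31 and Phrf1, and since the sources used here do not say whether counting used strand, both are uncertain.

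The OAS proteins sense double-stranded RNA, and the active ones make the messenger that turns on RNase L. All 4 tested members, Oas1a, Oas1g, Oas2 and Oasl2, rose in DKO against WT. Oas2 (chromosome 5, 120730333 to 120749853, minus strand) lay at 1.76, 0.563 and 0.907 RPKM in DKO_TG and at 2.19, 1.54 and 1.44 RPKM in DKO, against 0.186, 0.306 and 0.181 RPKM in WT. DKO and WT did not overlap, and neither did DKO_TG and WT. The log2 change of Oas2 in DKO against WT was 1.61 ± 0.26 (SE; adjusted p = 0.000984 in limma). Oas1a lay at 2.24, 1.06 and 1.60 RPKM in DKO_TG and at 2.83, 3.88 and 3.11 RPKM in DKO, against 1.71, 1.76 and 1.49 RPKM in WT. Oas1g lay at 1.25, 0.587 and 0.858 RPKM in DKO_TG and at 1.69, 2.18 and 1.78 RPKM in DKO, against 0.802, 0.755 and 0.717 RPKM in WT. In both the DKO libraries were the highest, and the log2 changes in DKO against WT were 0.80 and 0.92 (adjusted p = 0.00775 and 0.00212 in limma). Oas1a and Oas1g are near copies, with 57.6% of the 50-base words of Oas1a also found in Oas1g, and each is uncertain. Oasl2 rose by a log2 change of 0.62 (adjusted p = 0.0446 in limma).

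Among the sensors of nucleic acids, 3 of 4 rose in DKO against WT. Zbp1, a sensor of Z-form nucleic acids that can trigger necroptosis, lay at 0.621, 0.287 and 0.267 RPKM in DKO_TG and at 0.781, 1.29 and 1.38 RPKM in DKO, against 0.291, 0.412 and 0.358 RPKM in WT. It was highest in the DKO libraries (log2 change against WT 0.93 ± 0.20, SE; adjusted p = 0.00391 in limma). Ifih1, which encodes the RNA sensor MDA5, rose by a log2 change of 0.54 (adjusted p = 0.0114), and Dhx58, which encodes its partner LGP2, by 0.80 (adjusted p = 0.00704, both in limma). Ddx58, which encodes RIG-I, lay at 5.70, 3.62 and 4.50 RPKM in DKO_TG and at 5.21, 4.97 and 4.54 RPKM in DKO, against 5.03, 3.42 and 4.01 RPKM in WT. Its groups overlapped, with a log2 change of 0.23 in DKO against WT (adjusted p = 0.269 in limma).

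Among the GTPases Mx2 and Gbp3 rose in DKO against WT and Gbp2 was not called. Mx2 (chromosome 16, 97535308 to 97560900, plus strand), an antiviral dynamin-like GTPase annotated as a polymorphic pseudogene, lay at 1.05, 0.720 and 0.844 RPKM in DKO_TG and at 1.39, 0.896 and 0.973 RPKM in DKO, against 0.109, 0.173 and 0.132 RPKM in WT. Every knockout library was above every WT library, and Mx2 rose in DKO against WT (log2 change 1.30 ± 0.15, SE; adjusted p = 0.000166 in limma). Its untested neighbour Mx1 lay at 0.227, 0.185 and 0.233 RPKM in DKO_TG and at 0.397, 0.241 and 0.473 RPKM in DKO, against 0.0519, 0.0591 and 0.0219 RPKM in WT. Mx1 was also lowest in WT, on 4 to 10 recovered reads in each WT library. Gbp3, a guanylate-binding protein that acts against intracellular pathogens, averaged 6.64 ± 2.20 RPKM in DKO_TG and 9.31 ± 1.40 RPKM in DKO, against 5.30 ± 0.773 RPKM in WT (SD, n = 3 each). It rose in DKO against WT (log2 change 0.76; limma adjusted p = 0.0146), whereas Gbp2 had a log2 change of 0.26 there (adjusted p = 0.272 in limma).

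The remaining effectors held both the largest change and the members that moved least. Xaf1 (chromosome 11, 72301629 to 72313733, plus strand), a protein that counters the apoptosis inhibitor XIAP, lay at 8.99, 4.54 and 5.83 RPKM in DKO_TG and at 9.26, 9.35 and 6.84 RPKM in DKO, against 1.52, 1.07 and 1.32 RPKM in WT. The lowest knockout library was far above the highest WT library, and the log2 change in DKO against WT was 2.31 ± 0.23 (SE; adjusted p = 6.73e-05 in limma), the largest among the 33 members. Trim30a, a ring-finger protein that restrains Toll-like receptor signalling in mice, lay at 3.27, 2.37 and 2.27 RPKM in DKO_TG and at 4.01, 3.94 and 3.64 RPKM in DKO, against 1.39, 1.72 and 2.08 RPKM in WT. These genotypes did not overlap, and Trim30a rose in DKO against WT (log2 change 0.98 ± 0.15, SE; adjusted p = 0.000765 in limma). It shares 5.98% of its 50-base words with other genes, most with Trim30d. Parp14, an ADP-ribosyltransferase, lay at 3.15, 1.96 and 2.39 RPKM in DKO_TG and at 3.71, 3.98 and 3.91 RPKM in DKO, against 1.67, 1.91 and 2.39 RPKM in WT. It rose in DKO against WT (log2 change 0.82; limma adjusted p = 0.00232), and so did its relative Parp9 (0.55, adjusted p = 0.0062). Parp9 lay at 4.52, 3.15 and 3.85 RPKM in DKO_TG and at 5.23, 5.42 and 4.79 RPKM in DKO, against 3.44, 3.01 and 3.66 RPKM in WT, with all DKO libraries above all WT libraries; it shares exon bases with Dtx3l and is uncertain. Ifi44 (0.88), the receptor-trafficking protein gene Rtp4 (0.62) and the nucleotide kinase gene Cmpk2 (0.36) also rose on the log2 scale (adjusted p = 0.00856, 0.0197 and 0.026 in limma).

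Several well-known members were not called in DKO against WT. Bst2 lay at 200, 194 and 197 RPKM in DKO_TG and at 231, 217 and 188 RPKM in DKO, against 223, 261 and 202 RPKM in WT. Ifi27 lay at 124, 79.9 and 93.1 RPKM in DKO_TG and at 99.2, 104 and 73.1 RPKM in DKO, against 142, 75.9 and 70.7 RPKM in WT. The DKO and WT libraries of both overlapped, and the log2 changes in DKO against WT were -0.10 for Bst2 and 0.00 for Ifi27 (adjusted p = 0.514 and 0.992 in limma). Bst2 reversed and was called higher when RPKM was turned into TPM (log2 change 0.45) or quantile normalized (0.58). Rsad2, which encodes viperin, averaged 0.524 ± 0.0783 RPKM in DKO_TG, 0.580 ± 0.311 RPKM in DKO and 0.578 ± 0.159 RPKM in WT (SD, n = 3 each). The exonuclease gene Isg20 lay at 2.95, 2.97 and 2.74 RPKM in DKO_TG and at 3.67, 4.94 and 3.18 RPKM in DKO, against 4.20, 2.75 and 2.74 RPKM in WT. Its DKO and WT libraries overlapped. Isg20 had a log2 change of 0.25 in DKO against WT (adjusted p = 0.254) and Ifi35, an adaptor of the Nmi complex, of 0.23 (adjusted p = 0.23, both in limma).

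Dhx58, Gbp2, Ifi35, Parp14, Rtp4 and Usp18 share exon bases with other annotated transcripts, and Gbp3 shares 3.75% of its 50-base words with Gbp7, so these members are uncertain as well. Of the 22 calls in DKO against WT, 6 were lost when 1 library was left out. Ifit3 lost its call without any 1 of the DKO or WT libraries (adjusted p = 0.0594 to 0.104) and Oasl2 without any of these or DKO_TG replicate 3 (0.0583 to 0.112). Irf7 (0.0564 to 0.0886) and Cmpk2 (0.0573 to 0.0769) lost theirs without DKO replicate 1 or 2 or WT replicate 2 or 3, Rtp4 without DKO replicate 3 or WT replicate 2 or 3 (0.0523 to 0.0556), and Gbp3 without WT replicate 1 (0.0506, all adjusted p in limma). The count of risen members also depended on the scaling of the libraries. It was 10 of 33 after quantile normalization (22% of all genes) and 30 of 33 on the TPM scale (53.2% of all genes), where the median of all genes also moved to 0.52 and that of the members to 1.17.

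**Figure D2:**
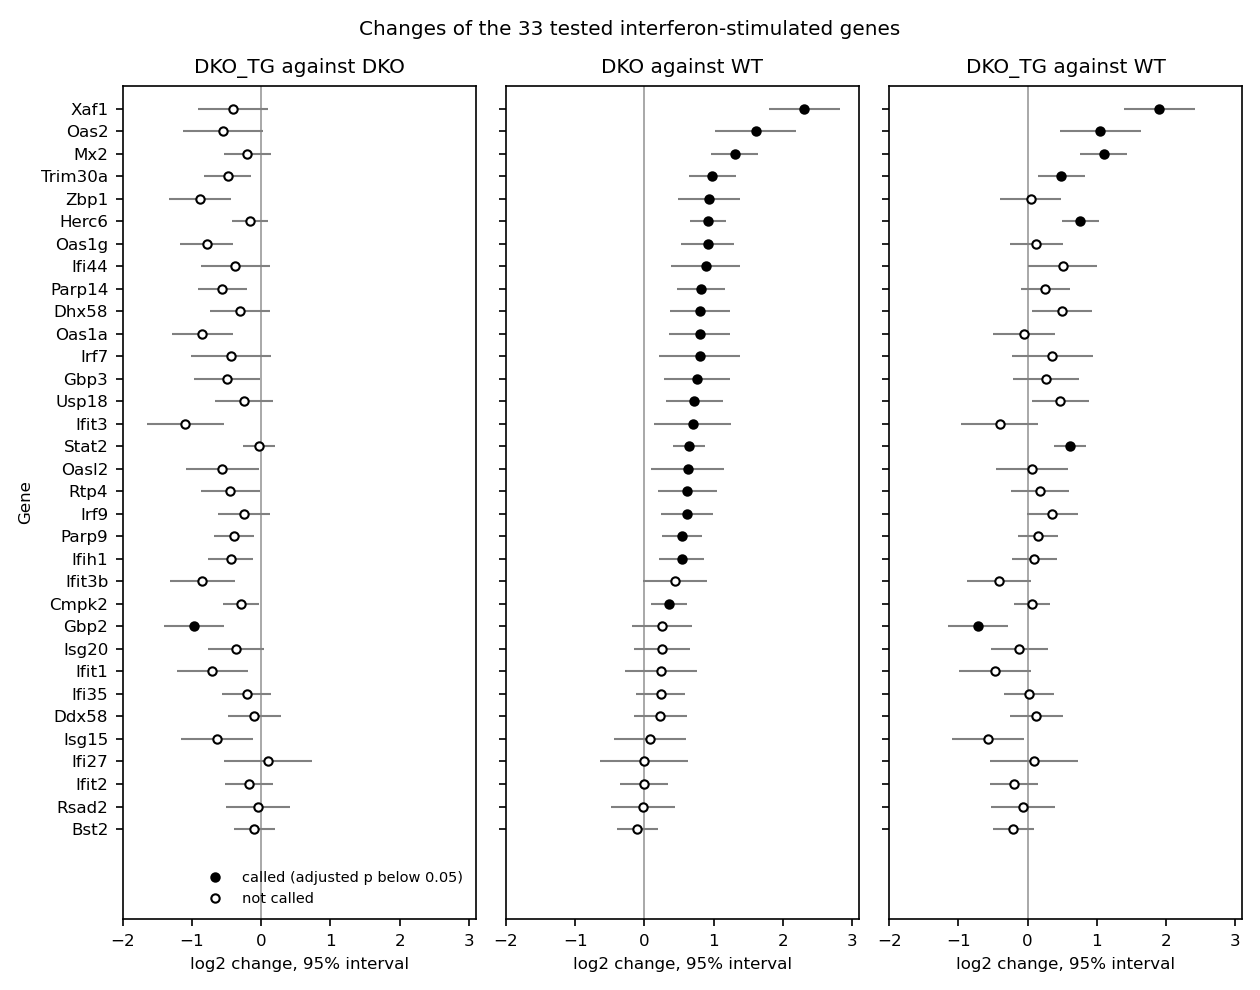
Log2 changes of the 33 tested members (rows) in DKO_TG against DKO, DKO against WT and DKO_TG against WT (panels), with 95% intervals; filled points had an adjusted p below 0.05 in limma. In DKO against WT 22 points are filled and to the right of 0; in DKO_TG against DKO only Gbp2 is filled, to the left.

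Nearly all members had lower mean values in DKO_TG than in DKO, but few of the differences passed the test. In limma 1 of 33 tested members, Gbp2, fell in DKO_TG against DKO, beside 1.73% of all tested genes. None rose, beside 0.498% of all genes; none was higher at an unadjusted p below 0.05, and none with voom. The log2 change was negative for 32 members and positive for Ifi27 alone (0.09, adjusted p = 0.901 in limma), and 16 members had an unadjusted p below 0.05 in the lower direction. The median log2 change was -0.41, against 0.03 for all tested genes; without DKO_TG replicate 1 it was -0.615 and without DKO_TG replicate 2 it was -0.255. All DKO_TG libraries lay below all DKO libraries for 13 of 33 members, beside 12.1% of all genes.

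Gbp2 (chromosome 3, 142620602 to 142638008, plus strand), a GTPase that interferon gamma induces strongly, lay at 11.0, 9.20 and 8.57 RPKM in DKO_TG and at 17.7, 23.1 and 17.2 RPKM in DKO, against 16.5, 12.1 and 20.2 RPKM in WT. All DKO_TG libraries were below all others, while DKO and WT overlapped. Gbp2 fell in DKO_TG against DKO (log2 change -0.97 ± 0.19, SE; adjusted p = 0.0432 in limma). The call of Gbp2 was kept under 11 of 22 alternatives and was lost without any 1 of the DKO or DKO_TG libraries or WT replicate 1 (adjusted p = 0.0582 to 0.17). Ifit3 had the most negative change among the members that did not pass, at a log2 change of -1.10 ± 0.24 (SE; adjusted p = 0.0599 in limma), followed by Zbp1 (-0.89, adjusted p = 0.0582), Oas1a (-0.85, adjusted p = 0.0654), Ifit3b (-0.85, adjusted p = 0.0754) and Oas1g (-0.79, adjusted p = 0.0537, all in limma). Ifit3b lay at 2.30, 1.07 and 1.34 RPKM in DKO_TG, against 2.81, 3.07 and 3.49 RPKM in DKO. In these genes, as in Gbp2, every DKO_TG library was below every DKO library, and DKO_TG replicate 1 was the nearest to DKO.

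Leukocyte markers moved here too. The pan-leukocyte genes Ptprc, Coro1a and Laptm5, all of which fell in DKO_TG against DKO, summed to 10.5, 10.7 and 10.7 RPKM in DKO_TG, against 21.03, 44.8 and 29.4 RPKM in DKO. Of 13 tested macrophage markers 10 fell, and the 14 listed ones summed to 176, 224 and 221 RPKM in DKO_TG, against 273, 506 and 361 RPKM in DKO. Ptprc, which encodes CD45, lay at 0.961, 0.813 and 0.906 RPKM in DKO_TG and at 1.97, 4.56 and 3.48 RPKM in DKO, against 0.268, 0.280 and 0.352 RPKM in WT. It was thus below 0.5 RPKM in every WT library and passed the filter only through the knockout groups. The 3 pan-leukocyte genes together summed to 16.1, 13.7 and 18.9 RPKM in WT, above DKO_TG. In DKO_TG against WT 1 of these 3 genes rose and 1 fell. The 5 erythrocyte markers were below DKO in every DKO_TG library, with a median log2 change of -2.38 and sums of 285, 198 and 265 RPKM in DKO_TG, against 562, 2409 and 1672 RPKM in DKO; none was called in limma, and all 5 had an unadjusted p below 0.05. Theca markers also differed. Cyp17a1, Insl3 and Lhcgr summed to 1077, 789 and 722 RPKM in DKO_TG, against 200, 130 and 248 RPKM in DKO. In WT they summed to 1025, 261 and 270 RPKM. None of the 3 was called in DKO_TG against DKO in limma. At an unadjusted p below 0.05, 2 were higher and 1 was lower. Insl3 shares exon bases with Jak3 and is uncertain. Whether leukocytes, blood or theca cells bear on the difference in the members was not tested.

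**Figure D3:**
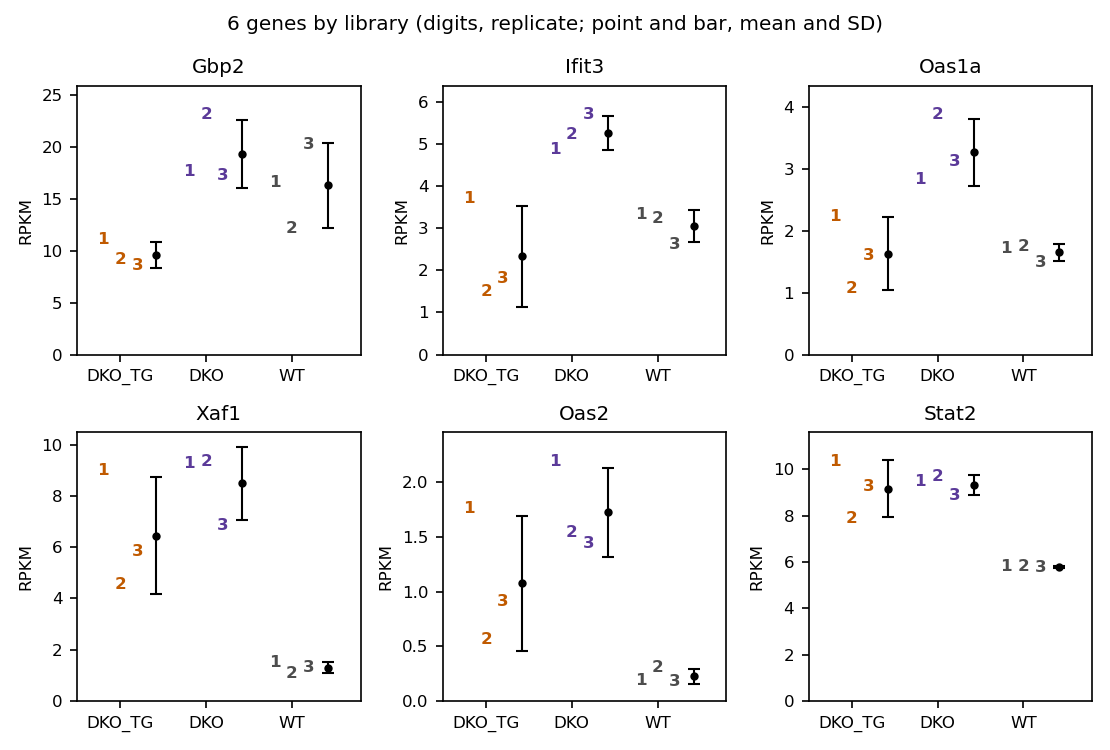
RPKM of Gbp2, Ifit3, Oas1a, Xaf1, Oas2 and Stat2 in DKO_TG, DKO and WT. Digits are the replicates of each genotype, and the point with its bar is the mean and SD of 3 libraries. For Gbp2 all DKO_TG values are below the rest; for Xaf1, Oas2 and Stat2 all WT values are below the rest.

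The promoters of 4 of these genes are shown because they had the lowest adjusted p in DKO_TG against DKO among members whose promoter holds a core of the interferon-stimulated response element. The core searched was GAAA, any 2 bases and again GAAA on either strand, so that TTTC, 2 bases and TTTC also counts, in windows from 250 bases before to 50 after the RefSeq start of transcription on GRCm38.p6. Capitals mark the matches, and each run is the 250 bases before the start, read along the gene.
Gbp2: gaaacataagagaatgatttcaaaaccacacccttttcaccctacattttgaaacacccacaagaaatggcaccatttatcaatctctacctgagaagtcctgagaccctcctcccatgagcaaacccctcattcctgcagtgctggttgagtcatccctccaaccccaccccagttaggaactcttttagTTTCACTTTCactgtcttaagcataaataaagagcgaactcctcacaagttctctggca
Oas1g: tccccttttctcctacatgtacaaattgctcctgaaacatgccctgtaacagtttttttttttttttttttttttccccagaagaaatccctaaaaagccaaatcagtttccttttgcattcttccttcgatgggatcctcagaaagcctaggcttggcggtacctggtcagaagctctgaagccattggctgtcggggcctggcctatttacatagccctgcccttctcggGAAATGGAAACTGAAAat
Ifit3: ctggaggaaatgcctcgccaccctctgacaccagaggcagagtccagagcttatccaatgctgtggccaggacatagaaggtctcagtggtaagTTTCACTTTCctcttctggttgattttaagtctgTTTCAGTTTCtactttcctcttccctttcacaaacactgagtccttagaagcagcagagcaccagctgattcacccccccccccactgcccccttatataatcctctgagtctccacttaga
Oas1a: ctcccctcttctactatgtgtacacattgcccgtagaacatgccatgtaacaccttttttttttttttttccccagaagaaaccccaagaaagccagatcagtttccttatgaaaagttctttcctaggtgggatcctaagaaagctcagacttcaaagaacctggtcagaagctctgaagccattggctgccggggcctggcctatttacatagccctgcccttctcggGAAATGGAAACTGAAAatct
The Gbp2 run is chr3:142620413-142620662 on the plus strand, with 1 match that begins 59 bases before the start. GENCODE places the first base of Gbp2 inside this run, just before the match, which thus lies within the gene as GENCODE draws it. The Oas1g run is chr5:120887614-120887863 and the Oas1a run chr5:120907526-120907775, both on the minus strand. Each has 2 overlapping matches, which begin 18 and 12 bases before the start of Oas1g and 20 and 14 bases before that of Oas1a. The capital runs of these near copies are identical. The Ifit3 run is chr19:34583279-34583528 on the plus strand, with matches that begin 156 and 122 bases before the start.

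RefSeq entries were found for 26 of the 36 members, and 15 of these (57.7%) held the core, against 3.99% of 27025 genes with an entry. The longer form with GAAA 3 times, each 2 bases apart, every match of which also counts as a match of the core, was in 5 of 26 members (19.2%), against 0.133% of all genes. The palindrome TTCNNNGAA, the core bound by STAT dimers, was in 5 of 26 members (19.2%), against 9.55% of all genes. Such matches are letters in a window and say nothing on binding. Herc6 and Xaf1, which rose in DKO against WT, had no match of the core in their windows, whereas Isg15 and Bst2, which were not called there, had 3 and 2. In other members match and call went together. Oas1a, Oas1g and Stat2 rose and held the core, and Ifi35 and Isg20 were not called and held none. These are examples, and matches were not tested against calls.

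Fewer members stood apart from WT in the ovaries with the transgene. In limma 6 of 33 tested members rose in DKO_TG against WT, beside 29.1% of all tested genes, and Gbp2 fell, beside 22.3% of all genes. The risen members were Xaf1 (log2 change 1.90 ± 0.23, SE; adjusted p = 0.00021), Mx2 (1.10 ± 0.15, adjusted p = 0.000455), Herc6 (0.76 ± 0.12, adjusted p = 0.000819), Stat2 (0.61 ± 0.10, adjusted p = 0.00121), Oas2 (1.05 ± 0.26, adjusted p = 0.00862) and Trim30a (0.49 ± 0.15, adjusted p = 0.0229). In these 6 of 33 members, and in no other, all DKO_TG libraries lay above all WT libraries, beside 35.6% of all genes. Mx2 and Oas2 were below 0.5 RPKM in every WT library and passed the filter only through the knockout groups, which favours such calls. Gbp2 had a log2 change of -0.71 ± 0.19 (SE, adjusted p = 0.0135 in limma). Gbp2 and Bst2, 2 of 33 members, were wholly below WT, beside 30.2% of all genes. The median log2 change of the 33 members was 0.13, against 0.03 for all genes; it was -0.06 after quantile normalization and -0.02 without DKO_TG replicate 1. Marker lists moved here as well: 5 of 13 tested macrophage markers fell and 1 rose, 3 of 5 erythrocyte and 4 of 6 endothelial markers fell, and 5 of 6 oocyte markers rose. The erythrocyte markers summed to 198 to 285 RPKM in DKO_TG and 361 to 1657 RPKM in WT, the macrophage markers to 176 to 224 and 196 to 246 RPKM, and their part in the result was not tested. This comparison shares its WT libraries with DKO against WT and its DKO_TG libraries with DKO_TG against DKO, so the 3 sets of calls are not independent.

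Several of the remaining members averaged close to WT. Zbp1 averaged 0.392 ± 0.199 RPKM in DKO_TG and 1.15 ± 0.323 RPKM in DKO, against 0.353 ± 0.0606 RPKM in WT (SD, n = 3 each), and its log2 change in DKO_TG against WT was 0.04 (adjusted p = 0.868 in limma). Oas1a averaged 1.63 ± 0.590 RPKM in DKO_TG and 3.27 ± 0.542 RPKM in DKO, against 1.65 ± 0.141 RPKM in WT, with a log2 change of -0.05 (95% interval -0.49 to 0.39; adjusted p = 0.847 in limma). Xaf1 and Stat2 did otherwise: their log2 changes in DKO_TG against DKO were -0.41 (adjusted p = 0.43) and -0.03 (adjusted p = 0.905 in limma), and both stood above WT in all DKO_TG libraries. Gbp2 lost its call against WT without DKO_TG replicate 3 (adjusted p = 0.0513) and on the TPM scale (log2 change -0.20, adjusted p = 0.367), and Trim30a without DKO_TG replicate 1 or WT replicate 1 or 2 (adjusted p = 0.0529 to 0.0797, all in limma). After quantile normalization Trim30a (adjusted p = 0.407) and Oas2 (adjusted p = 0.175, both in limma) were no longer called there. Without DKO_TG replicate 2 the number that rose against WT was 11. Without DKO_TG replicate 1 the number that fell was 6, with Ifit1, Ifit2, Ifit3, Ifit3b and Isg15 beside Gbp2.

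The DKO_TG libraries differed from each other along the set. DKO_TG replicate 1 was the highest of its group for 32 of 33 tested members, while it was the highest for 33.3% of all tested genes. DKO_TG replicate 2 was the lowest for 28 of 33, against 35.4% of all genes. For Oasl2, for example, the levels were 3.30, 1.31 and 1.73 RPKM in DKO_TG, against 3.32, 2.98 and 3.21 RPKM in DKO and 1.74, 1.87 and 2.03 RPKM in WT. Replicate 1 was thus at the level of DKO, and the other DKO_TG libraries were at or below that of WT. Rtp4 gave 6.86, 3.61 and 5.34 RPKM in DKO_TG, against 6.48, 7.53 and 7.43 RPKM in DKO and 4.88, 4.30 and 4.22 RPKM in WT. The median SD of a member on the log2 scale was 0.298 in DKO_TG, where the median of all tested genes was 0.095. It was 0.136 in DKO and 0.186 in WT, where all genes had medians of 0.189 and 0.156.

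**Figure D4:**
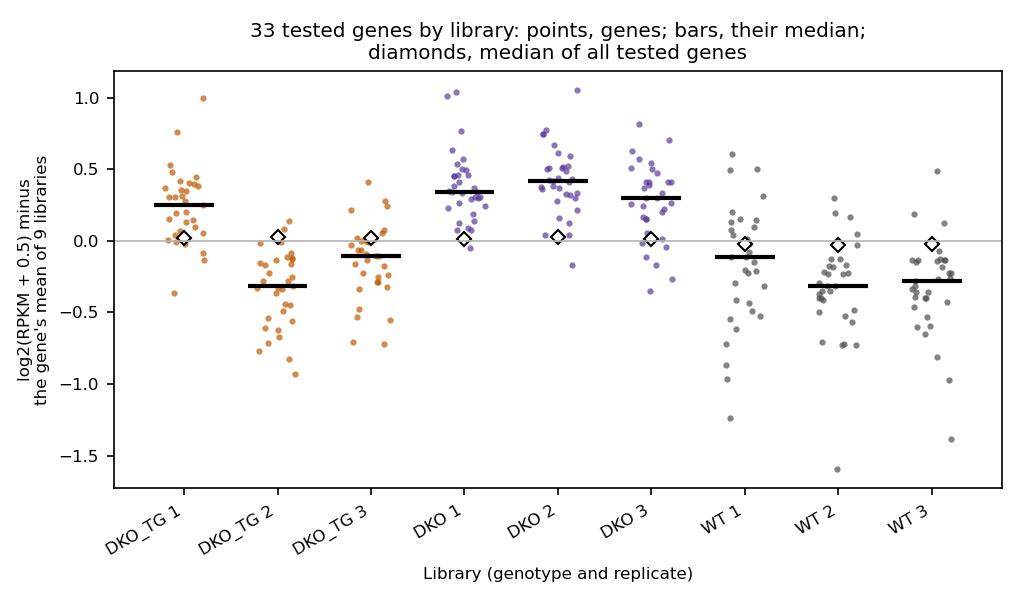
Level of each tested member in each library, as log2(RPKM + 0.5) minus its mean over 9 libraries. Points are the 33 members, bars their median and diamonds the median of all tested genes. The medians of the members are 0.25, -0.32 and -0.10 in DKO_TG, 0.34, 0.42 and 0.30 in DKO and -0.11, -0.31 and -0.28 in WT, while the diamonds stay near 0.

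The order within DKO and WT was less uniform. In DKO, replicates 1, 2 and 3 were the highest for 14, 15 and 4 members, where they were the highest for 30.5%, 38.7% and 30.8% of all genes. They were the lowest for 9, 5 and 19 members and for 34.8%, 33% and 32.3% of all genes. In WT they were the highest for 18, 8 and 7 members and for 47%, 22.9% and 30.1% of all genes. Usp18, Irf7 and Dhx58 were among the members that were highest in WT replicate 1: Irf7 lay at 3.13, 1.55 and 1.85 RPKM and Dhx58 at 1.47, 0.704 and 0.803 RPKM in WT. The leukocyte sums did not share the order of the members in DKO_TG: the pan-leukocyte genes were nearly level, and the macrophage genes summed lowest in replicate 1, although 7 of the 13 tested were highest there. Other lists did share it: 5 of 6 endothelial and 4 of 5 erythrocyte markers were highest in replicate 1, and 5 of 6 endothelial, all 5 erythrocyte and all 6 oocyte markers were lowest in replicate 2. Their part in the order of the members was not tested. The markers of plasmacytoid dendritic cells, which are known for interferon secretion, summed to 15.0, 8.38 and 7.17 RPKM in DKO_TG, against 2.66, 9.06 and 6.03 RPKM in DKO and 7.58, 2.20 and 3.15 RPKM in WT. These sums were highest in DKO_TG replicate 1 and WT replicate 1, and their part was not tested either. Most of this sum in DKO_TG was Ly6d (11.5, 6.28 and 5.29 RPKM), whereas Siglech, the most specific of these markers, lay at 0.630, 0.513 and 0.653 RPKM there, with replicate 3 the highest. The labels name no batch for any library.

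Upstream of the set, interferon transcripts were close to absent at this depth. Ifnb1 and 8 of the 13 listed interferon alpha genes were listed at 0 in all 9 libraries, and the other alpha genes had at most 2 recovered reads in any library. Ifng had 2, 3 and 1 reads in DKO_TG and 5, 5 and 4 reads in DKO, against 0 reads in each WT library. Ifnl3 had 13 reads in DKO_TG replicate 1, 3 in DKO replicate 2 and 5 in WT replicate 2, with none in the rest. These genes were below the filter and were not tested, and the alpha genes and both lambda genes are near copies, so their reads are uncertain. The receptor chain Ifnar1 lay at 14.9, 14.4 and 15.2 RPKM in DKO_TG and at 16.7, 15.4 and 16.6 RPKM in DKO, against 10.8, 12.1 and 12.3 RPKM in WT. It rose in DKO against WT (log2 change 0.45; limma adjusted p = 0.00176) and in DKO_TG against WT (0.33, adjusted p = 0.00896 in limma). Ifnar2 lay at 7.88, 8.33 and 7.55 RPKM in DKO_TG and at 9.92, 11.6 and 8.73 RPKM in DKO, against 12.7, 10.8 and 10.5 RPKM in WT. It fell in DKO_TG against WT (log2 change -0.49, adjusted p = 0.00832 in limma) and shares exon bases with Gm21970, so it is uncertain. Both chains of the interferon gamma receptor were tested, and Ifngr1 rose in DKO against WT (log2 change 0.26; limma adjusted p = 0.0184), while Ifngr2 had a log2 change of -0.15 there (adjusted p = 0.212). Il10rb, a chain of the interferon lambda receptor, had a log2 change of -0.50 in DKO_TG against DKO (adjusted p = 0.193 in limma) and shares exon bases with Gm21970.

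Some kinases and adaptors that lead to interferon were higher in both knockout groups than in WT. Of 16 tested sensors and adaptors outside the set, 8 rose and none fell in DKO against WT, with 1 at an unadjusted p below 0.05 in the lower direction; in DKO_TG against WT 6 rose and 2 fell. Of all tested genes 30.8% rose and 25.9% fell in DKO against WT. In DKO_TG against WT 29.1% of all genes rose and 22.3% fell, so the counts of this list there are near the background. Ikbke, a kinase that activates Irf3 and Irf7, lay at 1.54, 1.31 and 1.34 RPKM in DKO_TG and at 2.09, 1.96 and 1.99 RPKM in DKO, against 0.220, 0.362 and 0.342 RPKM in WT. It rose in DKO against WT (log2 change 1.64; limma adjusted p = 6.84e-06). Its relative Tbk1 rose in DKO against WT (0.87, adjusted p = 5.46e-05) and in DKO_TG against WT (0.89, adjusted p = 5.22e-05 in limma). Ikbke was below 0.5 RPKM in every WT library and passed the filter only through the knockout groups, which favours such a call. Ikbke also shares exon bases with antisense transcripts and is uncertain. In DKO_TG against DKO 3 of the 16 fell: Irf5, a factor of myeloid cells (log2 change -1.09, adjusted p = 0.0209), the DNA sensor Tlr9 (-0.81, adjusted p = 0.0414) and Tmem173, which encodes STING (-0.63, adjusted p = 0.0416 in limma). Irf1, a factor that interferon gamma induces, rose in DKO against WT (0.92, adjusted p = 0.000494) and in DKO_TG against WT (0.41, adjusted p = 0.0261 in limma).

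Of 11 tested genes of the JAK-STAT relay and its brakes, 6 rose and 1 fell in DKO against WT, 3 rose and 2 fell in DKO_TG against WT, and 1 fell in DKO_TG against DKO. Of all genes 30.8% rose and 25.9% fell in the first of these comparisons, 29.1% rose and 22.3% fell in the second and 1.73% fell in the third, so the counts in DKO_TG against WT are near the background. Tyk2 lay at 5.51, 6.07 and 6.18 RPKM in DKO_TG and at 7.60, 6.57 and 6.75 RPKM in DKO, against 3.14, 3.29 and 2.93 RPKM in WT. It rose in DKO against WT (log2 change 1.04; limma adjusted p = 2.99e-05) and in DKO_TG against WT (0.83, adjusted p = 0.00012 in limma), and it shares exon bases with an antisense transcript and is uncertain. Jak2 rose in both knockout groups against WT, by 0.42 in DKO and 0.38 in DKO_TG (adjusted p = 0.00338 and 0.00592 in limma). Ptpn11, a phosphatase that can damp the relay, fell in both, by -0.37 and -0.21 on the log2 scale (adjusted p = 0.00183 and 0.0264 in limma). The phosphatase gene Ptpn6, which is known mainly from blood cells, fell in DKO_TG against DKO (-1.67, adjusted p = 0.0339) and rose in DKO against WT (2.07, adjusted p = 0.000631 in limma).

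Other genes of the type I response, listed outside the 36, were more mixed than the members. Of 52 tested, 24 rose and 6 fell in DKO against WT (median log2 change 0.38), 20 rose and 12 fell in DKO_TG against WT (0.05), and 4 fell in DKO_TG against DKO (-0.32). Beside these counts, 30.8% of all genes rose and 25.9% fell in DKO against WT, 29.1% rose and 22.3% fell in DKO_TG against WT, where the number that fell is near the background, and 1.73% fell in DKO_TG against DKO. Uba7, the enzyme that activates Isg15 for transfer, lay at 4.69, 3.57 and 4.09 RPKM in DKO_TG and at 6.95, 5.85 and 6.99 RPKM in DKO, against 1.497, 1.41 and 1.61 RPKM in WT. The genotypes did not overlap in any pair. Uba7 fell in DKO_TG against DKO (log2 change -0.62, adjusted p = 0.0333) and rose in DKO against WT (1.82, adjusted p = 5.14e-06) and in DKO_TG against WT (1.198, adjusted p = 6.12e-05 in limma). Oas1b, an OAS gene known in mice for resistance to flaviviruses, rose in DKO against WT (1.75, adjusted p = 3.35e-05) and in DKO_TG against WT (1.37, adjusted p = 0.000141 in limma), as did the helicase gene Helz2 (1.37, adjusted p = 8.13e-05, and 1.42, adjusted p = 7.17e-05). Ly6a, the surface protein Sca-1, lay at 11.4, 8.60 and 8.91 RPKM in DKO_TG and at 20.3, 35.6 and 26.3 RPKM in DKO, against 33.8, 20.5 and 22.5 RPKM in WT. It fell in DKO_TG against DKO (-1.44, adjusted p = 0.0228) and against WT (-1.34, adjusted p = 0.00174 in limma), and Phf11b fell in DKO_TG against DKO (-1.03, adjusted p = 0.0357 in limma).

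The GTPases and antigen-presentation genes that interferon gamma induces had the lowest median of these lists in DKO_TG against DKO. Of 27 tested, 1 fell and none rose, beside 1.73% and 0.498% of all genes, although all 27 log2 changes were negative, with a median of -0.60, and 22 had an unadjusted p below 0.05 in that direction and none in the other. The gene that fell was Igtp, a GTPase of the vacuoles of intracellular parasites, at 8.01, 4.66 and 6.28 RPKM in DKO_TG and 13.4, 15.2 and 12.4 RPKM in DKO, against 7.87, 5.82 and 8.77 RPKM in WT (log2 change in DKO_TG against DKO -1.08, adjusted p = 0.0343 in limma). Its DKO libraries were above all others. In DKO against WT 17 of 27 rose and none fell (median 0.70), beside 30.8% and 25.9% of all genes, and none was lower at an unadjusted p below 0.05. They included Nlrc5, the activator of MHC class I genes (log2 change 1.79, adjusted p = 0.000172), Gbp4 (1.78, adjusted p = 0.000429) and Gbp8 (1.44, adjusted p = 0.000234 in limma), of which Gbp4 and Gbp8 overlap each other and are uncertain. In DKO_TG against WT 4 rose and 3 fell (median 0.01), fewer than the 29.1% and 22.3% of all genes. H2-D1, an MHC class I chain, and Tapbp, which loads its peptide, had log2 changes in DKO_TG against DKO of -0.83 and -0.66 (adjusted p = 0.052 and 0.062 in limma), and Tapbp fell in DKO_TG against WT (-0.72, adjusted p = 0.00381 in limma). DKO_TG replicate 1 was the highest of its group for all 27 genes and replicate 2 the lowest for 25. For the other genes of the type I response these counts were 39 and 36 of 52.

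**Figure D5:**
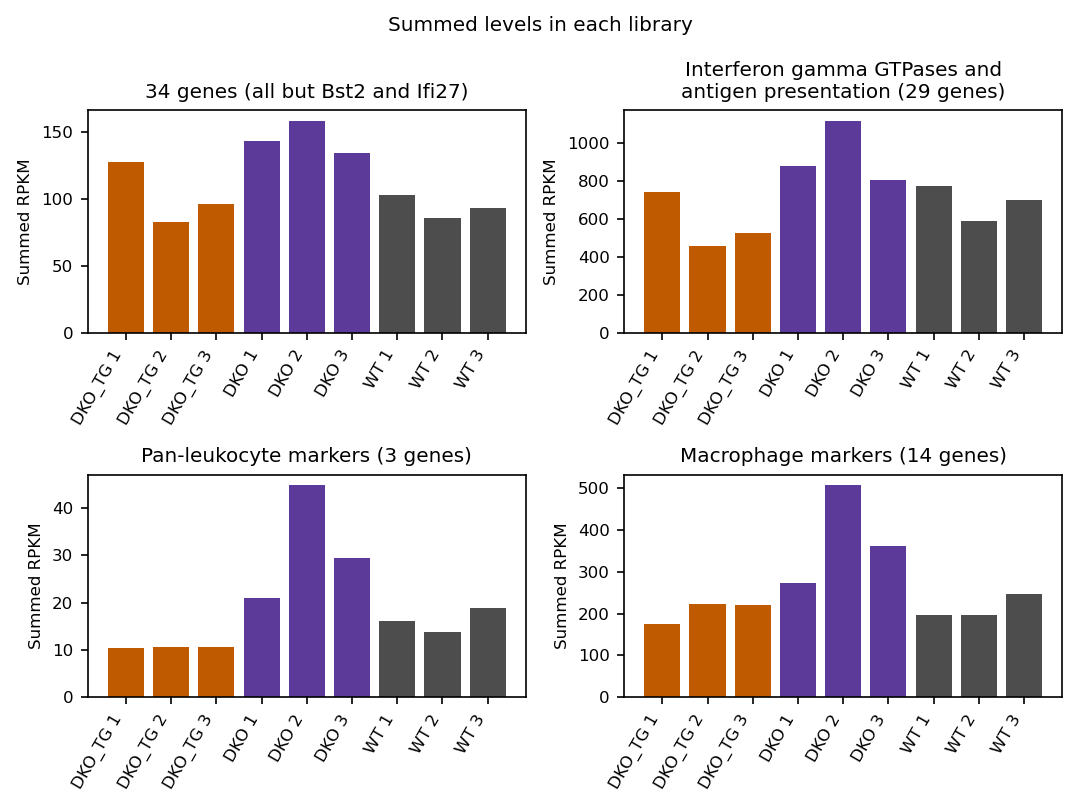
Summed RPKM per library for 34 members (all but the abundant Bst2 and Ifi27), for 29 genes of interferon gamma GTPases and antigen presentation, and for pan-leukocyte (3 genes) and macrophage (14 genes) markers. The sums of the members are 127, 82.5 and 95.7 in DKO_TG, 143, 158 and 134 in DKO and 103, 85.4 and 93.2 in WT; the leukocyte sums are highest in DKO replicate 2.

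Over the whole set, the 34 members other than Bst2 and Ifi27 summed to 127, 82.5 and 95.7 RPKM in DKO_TG and to 143, 158 and 134 RPKM in DKO, against 103, 85.4 and 93.2 RPKM in WT. All DKO sums were above all others, while DKO_TG and WT overlapped. The interferon gamma genes summed to 742, 458 and 527 RPKM in DKO_TG and to 880, 1115 and 806 RPKM in DKO, against 772, 586 and 697 RPKM in WT, again with the DKO libraries above the rest. Of the interferon pathway genes outside the set, Ifng, Igtp, Irf1, Irf5, Nlrc5, Ptpn6, Tapbp and Uba7 share exon bases with other annotated genes and are uncertain. Oas1b was below 0.5 RPKM in every WT library, and Tlr9 in every WT and DKO_TG library. Both passed the filter only through the other libraries, which favours their calls.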

How the data were processed

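The authors deposited RPKM values for 54838 genes in 9 libraries. Per the submitters' processing notes, the build was mm10 and the tools included DESeq2 1.2.8, HISAT2 2.1.0, HTSeq 0.5.4p5 and cutadapt; which annotation and strand setting were used, and how RPKM was made, is not given in the sources used here. The DKO_TG columns carry a variant spelling of the transgene and were assigned by genotype and replicate number.

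RPKM multiplied by GENCODE M21 exon length (54809 genes matched) gave whole reads, within 0.01, for 97.6% to 97.9% of the values of a library. The library size behind the deposited values was 0.793 to 0.920 of the total in WT and 1.03 to 1.11 in the rest. All 37 mitochondrial genes are listed at 0.

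A test on counts, planned for a count table, was replaced: limma 3.58.1 in R 4.3.3 (lmFit, eBayes with trend) was run on log2(RPKM + 0.5) of all 9 libraries for genes at 0.5 RPKM or more in at least 3. Calls are Benjamini-Hochberg adjusted p below 0.05 over all genes tested, and log2 changes understate weak genes. The fit was tested on simulated data. Near copies were measured by shared words of 50 bases.

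The members, lists and rules were chosen with earlier results of these data known. Values by library are given for members with the 6 smallest p in each comparison, for the most abundant member of each role and for a few others picked after their values were seen (Rtp4, Irf7, Dhx58, Mx1, Parp14); listed genes outside the set are the 3 with the smallest p in each comparison, plus Irf1, both type I receptor chains and detected interferons. The alternatives were other pseudocounts, filters and scalings, voom on recovered reads, protein-coding genes only, array weights, a replicate block, a fit without the third genotype (6 libraries), and each library left out in turn. The transcripts of Ifnk, Ifnz and Ifnl2, at 6 recovered reads or fewer, were not described, and 1 gene that the same rule named is not reported here.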

Additional observations from a re-analysis of the deposited data

How the results depend on the processing

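The limits come from 22 alternatives. No member was called higher in DKO_TG against DKO or lower in DKO against WT under any of them. The number that fell in DKO_TG against DKO, 1, was 0 with no filter, array weights, the replicate block or only the 6 libraries compared, 2 with a pseudocount of 1, 3 after quantile normalization, 4 with protein-coding genes only and 5 with the plain total of reads, and 0 to 1 when a library was left out (0 without WT replicate 1, DKO replicate 2 or 3, or DKO_TG replicate 2 or 3). Without DKO replicate 1 or DKO_TG replicate 1 the 1 member called lower was not Gbp2, which lost its call there. The number that rose in DKO against WT, 22, was 10 after quantile normalization and 17 to 23 when a library was left out. In DKO_TG against WT the number that rose, 6, was 20 with TPM, 12 with the plain total and 10 with array weights, and 5 to 11 when a library was left out. The number that fell there, 1, was 0 with TPM or the plain total, 6 after quantile normalization, 2 with array weights or the replicate block, and 0 to 6 when a library was left out (0 without DKO_TG replicate 3, 2 without WT replicate 3, 6 without DKO_TG replicate 1). Beyond the scalings, the causes were not tested. Among changes that were called before or after, that in DKO against WT reversed for Cmpk2 after quantile normalization (-0.022, adjusted p = 0.898 in limma) and for Bst2 with TPM (0.45, adjusted p = 0.035) and quantile normalization (0.58, adjusted p = 0.0393). Changes called neither before nor after turned sign under some alternative for 4 members in DKO_TG against DKO, 6 in DKO against WT and 18 in DKO_TG against WT. TPM moved the median of all genes to 0.52 in DKO and 0.51 in DKO_TG against WT, and the plain total to 0.28 and 0.25. Deviations of libraries with the same number correlated between -0.309 and 0.142, and those with different numbers between -0.262 and 0.322. With 3 libraries per group these values cannot tell whether the numbers pair the samples. With the replicate block as a term, 22 members rose in DKO against WT and 7 in DKO_TG against WT. Oas3, Mx1 and Oasl1 were too low in RPKM to pass the filter.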
